A study of Mus musculus with 4 samples.

Results

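Smad1 occupancy around the genes of the Nodal and activin branch of TGF-β signalling was read from the 5 deposited peak lists of a ChIP–seq experiment in embryoid bodies (EBs), free-floating balls of differentiating ES cells. The genes were 10 of the 21938 protein-coding genes of GENCODE M21: the ligand genes Nodal and Gdf3, the co-receptor gene Tdgf1, the inhibitor genes Lefty1 and Lefty2, the receptor genes Acvr1b, Acvr2a and Acvr2b, and the transducer genes Smad2 and Smad3. A peak was assigned to a gene when it met the gene body extended by 20 kb on both sides. In total 50 peaks of the 5 lists were assigned, and 8 of the 10 genes had at least one, beside 71.7% of all protein-coding genes. The share of genes with any peak was thus near the background. Counting peaks that overlap as 1 region gave 23 regions, of which 20 held a DMSO peak and 3 held only an IWR-1 peak.

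Nodal and activin ligands bind a pair of type II and type I serine/threonine kinase receptors, and Nodal and Gdf3 also need the co-receptor Tdgf1 (Cripto). The receptors phosphorylate Smad2 and Smad3, which enter the nucleus with Smad4 and act with DNA-binding partners such as FoxH1, while the Lefty proteins are secreted inhibitors that are themselves induced by Nodal. BMP ligands use a parallel route, through Smad1, Smad5 and Smad9, and share the type II receptors and Smad4 with the activin branch. In the early embryo Nodal is required for the primitive streak and for mesendoderm, and BMP for mesoderm and blood. An antibody to Smad1 thus reads the BMP branch, and the question here was where its peaks lay around genes of the neighbouring branch.

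GFP-Bry ES cells, labelled C57BL/6 and carrying GFP knocked into the Brachyury locus, had been grown as EBs that were dissociated on day 3, reaggregated, and kept for 24 h with the vehicle DMSO or with IWR-1 at 10 µM, which blocks Wnt signalling. On day 4, Smad1-bound chromatin and input chromatin were sequenced, with 1 ChIP library and 1 input library for each treatment. The cells were an unsorted mixture from a single ES cell line. Read counts are not part of the lists, so the depth behind each peak is unknown, and with 1 library per treatment no difference between DMSO and IWR-1 has a replicate check and none was tested. A missing call means that no peak passed the caller's threshold there, not that Smad1 was absent.

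For some lists the sample label goes against the coordinates, and the lists are named here by what they hold. The callers were MACS, which gives each peak a score, and QESEQ, which gives none. The list of 10466 common DMSO sites, called by both, identified the DMSO lists of each caller: all of its sites were intervals of one QESEQ list (26070 peaks) and all overlapped one MACS list (15927 peaks). By their sample labels both would be input libraries, the QESEQ list that of IWR-1 and the MACS list that of DMSO. The other QESEQ list (16261 peaks) is labelled as IWR-1 ChIP and is called the IWR-1 QESEQ list. The remaining MACS list (7815 peaks), called the second MACS list, is labelled as DMSO ChIP. It is read as IWR-1 here because the DMSO MACS list was already identified. The name under which it was deposited also gives IWR-1, against its sample label, but was not used to decide. Every IWR-1 call from it rests on that reading. MACS scores ranked peaks within a list and were not compared between lists, and percentiles give the share of the list's peaks with a lower score.

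The sequence under the sites is given first, because place and sequence are what the lists allow to be compared between these genes. For each gene with a common DMSO site, the central 150 bases of its highest-scoring site are shown on the plus strand of mm10. Capitals mark copies of a direct repeat in the Lefty1 site, a FoxH1 element (TGTGTATT, read on the minus strand) in the Lefty2 site, and a run of A in the Acvr1b and Smad3 sites. The Nodal and Acvr2a windows held none of the elements searched, and the first 4 bases of the Acvr2a window are the end of a longer run of A.
Nodal, chr10:61412186-61412335: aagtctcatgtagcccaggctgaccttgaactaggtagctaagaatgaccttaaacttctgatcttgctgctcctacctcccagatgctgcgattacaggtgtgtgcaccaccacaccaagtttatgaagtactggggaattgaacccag
Lefty1, chr1:180925346-180925495: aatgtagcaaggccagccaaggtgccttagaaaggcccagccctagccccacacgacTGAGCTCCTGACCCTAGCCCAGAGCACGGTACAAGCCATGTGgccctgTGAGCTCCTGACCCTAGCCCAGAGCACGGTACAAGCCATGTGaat
Lefty2, chr1:180900976-180901125: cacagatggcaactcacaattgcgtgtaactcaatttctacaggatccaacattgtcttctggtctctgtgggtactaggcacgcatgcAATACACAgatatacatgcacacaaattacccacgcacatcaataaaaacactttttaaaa
Acvr1b, chr15:101215601-101215750: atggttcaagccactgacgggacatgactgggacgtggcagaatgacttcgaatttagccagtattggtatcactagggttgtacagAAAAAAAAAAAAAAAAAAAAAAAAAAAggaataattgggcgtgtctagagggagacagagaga
Acvr2a intron 1, chr2:48853140-48853289: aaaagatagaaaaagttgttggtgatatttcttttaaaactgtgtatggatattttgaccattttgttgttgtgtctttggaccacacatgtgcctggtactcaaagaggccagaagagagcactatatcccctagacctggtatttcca
Smad3 intron 4, chr9:63664625-63664774: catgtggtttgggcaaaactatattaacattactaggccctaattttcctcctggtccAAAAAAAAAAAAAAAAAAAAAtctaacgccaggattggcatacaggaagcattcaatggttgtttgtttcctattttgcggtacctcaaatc

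The longest run of A or T in the MACS peak behind each common site is shown in capitals with 30 bases on each side, for the sites whose run is not whole above. These stretches were chosen after their values had been seen, because such a run was the sequence feature that all 8 sites shared once the whole MACS peak was read. A run of at least 7 also lay in 93.8% of all MACS peaks behind common sites, so it was not particular to these genes.
Nodal run, chr10:61412407-61412491: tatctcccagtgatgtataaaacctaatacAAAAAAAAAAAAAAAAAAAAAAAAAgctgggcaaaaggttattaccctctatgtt
Lefty1 run, chr1:180925521-180925606: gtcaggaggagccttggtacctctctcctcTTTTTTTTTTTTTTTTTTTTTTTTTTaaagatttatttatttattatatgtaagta
Lefty2 run, chr1:180901201-180901289: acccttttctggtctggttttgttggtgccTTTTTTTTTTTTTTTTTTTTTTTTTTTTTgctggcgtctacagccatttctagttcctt
Acvr2a upstream run, chr2:48807444-48807527: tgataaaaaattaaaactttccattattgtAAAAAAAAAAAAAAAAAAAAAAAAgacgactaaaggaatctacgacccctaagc
Acvr2a intron 1 run, chr2:48853087-48853173: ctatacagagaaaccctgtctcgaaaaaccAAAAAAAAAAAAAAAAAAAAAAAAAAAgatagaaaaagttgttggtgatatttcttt
Smad3 intron 5 run, chr9:63657432-63657498: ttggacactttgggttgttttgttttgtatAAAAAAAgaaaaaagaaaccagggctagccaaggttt

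Common DMSO sites lay near 6 of the 10 genes, beside 35.1% of all protein-coding genes within the same distance. Nodal, Lefty1, Lefty2 and Acvr1b had 1 site each, and Acvr2a and Smad3 had 2 each, which made 8 sites. Gdf3, Tdgf1, Acvr2b and Smad2 had none. By list, 6 of the 10 genes had a DMSO MACS peak (44.2% of all genes), 8 a DMSO QESEQ peak (60.2%), 8 an IWR-1 QESEQ peak (47.2%) and 5 a peak of the second MACS list (26.8%). Common sites were placed at 10.4 per Mb in the 0.77 Mb around these genes and at 5.04 per Mb around all protein-coding genes, and the gene bodies had a median length of 20.1 kb against 17.4 kb. These shares describe the 10 genes and were not tested.

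**Figure D1:**
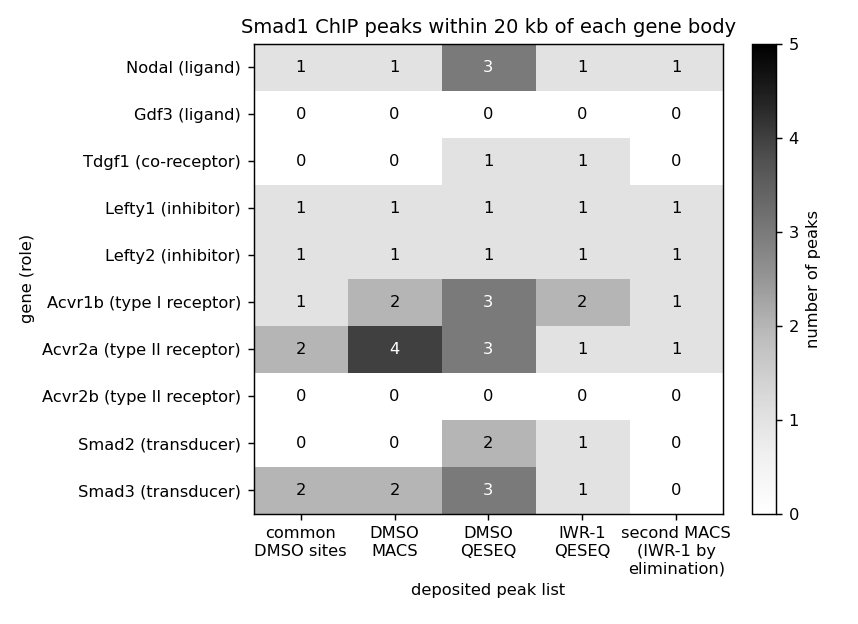
Number of Smad1 ChIP peaks within 20 kb of each gene body (rows, with the gene's role) in each of the 5 deposited lists (columns). Gdf3 and Acvr2b have 0 in every list, Tdgf1 and Smad2 have QESEQ peaks alone, and Acvr2a has the highest single count, 4 in the DMSO MACS list.

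**Figure D2:**
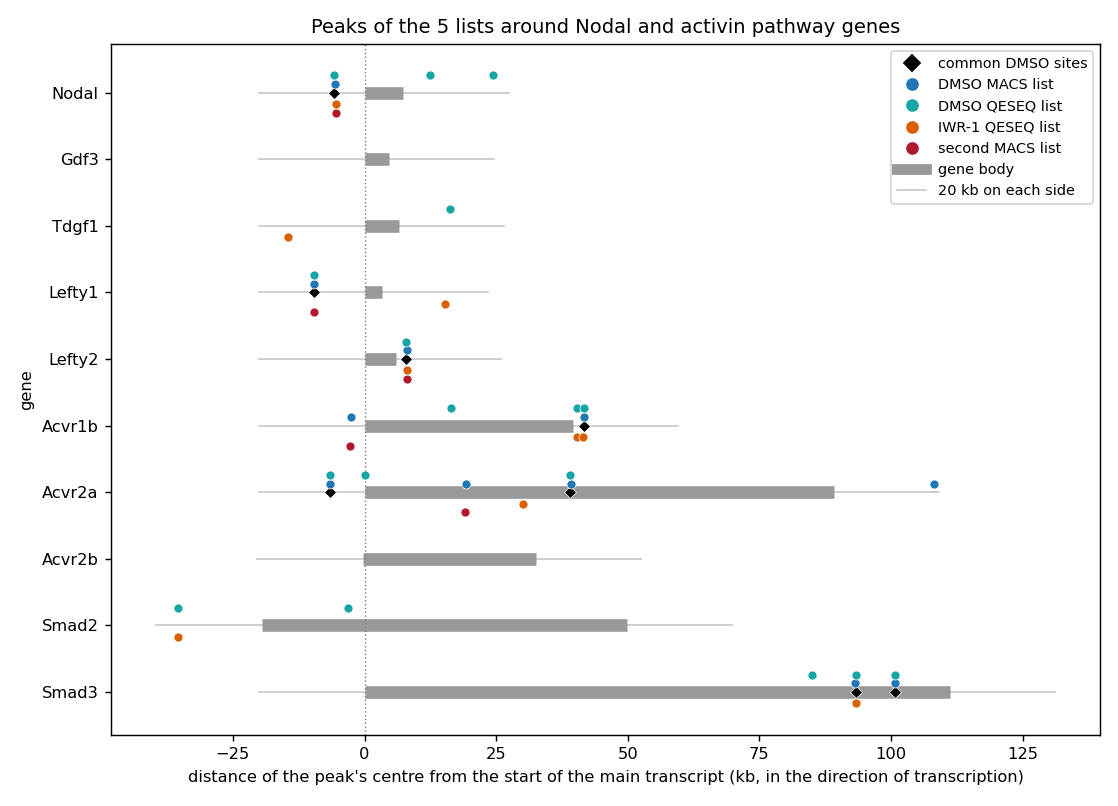
Centres of the peaks of the 5 lists against distance in kb from the start of each gene's main transcript, in the direction of transcription, with the gene body as a thick bar and the 20 kb on each side as a thin line. The common sites of Nodal and Lefty1 lie upstream, those of Lefty2 and Acvr1b past the end of the gene, and those of Smad3 in introns far from the start.

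Among the ligand genes, Nodal had a common site and Gdf3 had no peak of any list. Nodal (ENSMUSG00000037171.6, 3 exons) lies at chr10:61417972-61425338 on the plus strand. Its common site, chr10:61412052-61412471, was centred 5711 bp upstream of the transcript start, between genes. The DMSO MACS peak behind it scored 56.8, at percentile 25.8 of its list, so this was the lowest-scoring of the 8 sites. QESEQ called it with IWR-1 at 61412218-61412824, and the second MACS list called it at 61412297-61412648 with a score of 50.5, at percentile 3.0 of that list and close to the lowest score that a peak could have, 50. Repeats of any kind, as masked in the assembly, covered 51.2% of the Nodal site and 75.1% of the MACS peak. The site held a run of 25 A, printed above, and none of the Smad, FoxH1, TCF/LEF, GATA or AP-1 elements searched.

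QESEQ alone listed DMSO peaks beyond Nodal, at chr10:61430048-61430921 and chr10:61442061-61442601, centred 12.5 kb and 24.4 kb downstream of the Nodal start and inside Eif4ebp2, a neighbouring gene for a translation inhibitor. The nearer of them held 1 CAGACA, 1 CTTTGTT and 1 TGACTCA. Neither was called in an IWR-1 list. Gdf3 (ENSMUSG00000030117.5, chr6:122605403-122610087, minus strand), which encodes a Nodal-related ligand, lay 58.8 kb from the nearest peak of any list and 59.0 kb from the nearest common site.

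Tdgf1 (ENSMUSG00000032494.12, chr9:110939603-110946158, minus strand) had single-caller peaks on both sides, a different one in each treatment. In DMSO, QESEQ listed chr9:110929692-110930074, centred 16.3 kb downstream of the transcript start, with 3 copies of CAGACA. With IWR-1, QESEQ listed chr9:110960394-110960869, centred 14.5 kb upstream and inside Lrrc2, with 1 GGAGCC, 1 CAGACA and 1 TGACTCA. No MACS peak of either list lay within 20 kb, and the first outside was a peak of the second MACS list at 23.6 kb. The nearest common site was 48.7 kb from the gene.

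The inhibitor genes Lefty1 and Lefty2 lie side by side on chromosome 1, both on the plus strand, and each had a common site in the interval between them. Lefty2 (ENSMUSG00000066652.5) spans chr1:180893108-180899103. Its common site, chr1:180900921-180901181, began 1818 bp past the end of the gene and was centred 7943 bp downstream of the transcript start. The DMSO MACS peak scored 69.4, at percentile 58.7. Both IWR-1 lists called the site, QESEQ at 180901005-180901234 and the second MACS list at 180901005-180901313 with a score of 51.3, at percentile 7.1. The Lefty2 site was the single one of the 8 with a FoxH1 element, 18 bp from its centre. FoxH1 words lay in 9.92% of all common sites and in 11.3% of windows of the same width 2 kb to either side. FoxH1 is the forkhead factor that brings Smad2 and Smad4 to Nodal target genes, and a match of letters does not show that it was bound.

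Lefty1 (ENSMUSG00000038793.8) spans chr1:180935022-180938400. Its common site, chr1:180925341-180925501, was centred 9601 bp upstream of the transcript start. At 161 bp it was the narrowest of the 8 sites, and it had 59.6% G and C and 0.0% masked repeat. The MACS peak behind it ran on to 180925651 and scored 62.5, at percentile 42.9. The site held a direct repeat of 42 bp, with copies at 180925403-180925444 and 180925451-180925492, the starts 48 bp apart. Among all 10466 common sites, 84 (0.803%) held a direct repeat of at least that length, and among the other 7 sites the longest was 13 bp, inside a run of A. The cutoff of 42 bp was the length seen at the Lefty1 site itself, so this share describes that site and was not a test. The Lefty1 site held no element searched. The rest of the MACS peak held the run of 26 T shown above, with GGAGCC just before it and CAGACA after it.

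With IWR-1, the Lefty1 site was called in the second MACS list, at 180925367-180925554 with a score of 59.6 and percentile 41.4, and it was not called by QESEQ. The IWR-1 QESEQ list instead held a peak on the other side of the gene, chr1:180950023-180950769, centred 15.4 kb downstream of the start and inside Tmem63a, which overlapped no DMSO peak. It held 1 AGATAA and a run of 23 bases of A or T.

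Of the receptor genes, Acvr1b and Acvr2a had the most peaks and Acvr2b had none. Acvr1b (ENSMUSG00000000532.11, chr15:101174067-101213684, plus strand) encodes the type I receptor ALK4, which phosphorylates Smad2 and Smad3. Its common site, chr15:101215426-101215927, began 1742 bp past the end of the gene and 41609 bp, measured to its centre, from the start. The nearest coding transcript start, that of Grasp, was 8512 bp away. The DMSO MACS score was 58.8, at percentile 32.2. The site held 2 copies of GGAGCC, 143 bp and 200 bp from its centre, and the run of 27 A printed above. QESEQ called it with IWR-1 at 101215227-101215948, and the second MACS list had no peak there.

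The other Acvr1b peaks were single-caller ones. A DMSO MACS peak at chr15:101171215-101171733, centred 2593 bp upstream of the start, scored 52.2 at percentile 9.1. The second MACS list called the same place at 101171242-101171563, with a score of 55.9 at percentile 28.5 of that list. No QESEQ list held it. It contained a run of 42 bases of A or T, the longest at any of these genes, and 3 copies of AGATAA. QESEQ in DMSO listed chr15:101190362-101190691 in intron 1, with no IWR-1 call, and chr15:101214122-101214681, which began 438 bp past the gene end and held 2 GGAGCC and 1 CAGACA. The latter was called by QESEQ with IWR-1 at 101214088-101214592.

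Acvr2a (ENSMUSG00000052155.5, chr2:48814109-48903269, plus strand), a type II receptor for activins and Nodal that also takes part in BMP signalling, had 2 common sites, and no IWR-1 list called either. The upstream site, chr2:48807248-48807868, was centred 6551 bp before the start and scored 72.4, at percentile 64.3. It was the widest of the 8, at 621 bp, and held 3 copies of AGATAA and a run of 24 A. The intron 1 site, chr2:48853029-48853401, was centred 39106 bp downstream of the start. It scored 85.2, at percentile 80.1, the highest of the 8, and held a run of 27 A but no other element searched.

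DMSO MACS also listed an intron 1 peak of Acvr2a at chr2:48833107-48833505, with a score of 71 at percentile 61.9, outside the DMSO QESEQ list. The second MACS list called it at 48833061-48833440, with a score of 65.4 at percentile 56.6. A further DMSO MACS peak, chr2:48922189-48922502, lay past the gene in Orc4, scored 55.5 at percentile 21.2 and had no IWR-1 call. The IWR-1 QESEQ list held an intron 1 peak of its own, chr2:48844103-48844499, with 1 CAGACA.

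Acvr2a was also the one gene with a peak at a transcript start. The DMSO QESEQ peak chr2:48814043-48814496, centred 160 bp downstream of the start, covered 5' untranslated sequence of exon 1 and the last part of the upstream sequence. It had 72.9% G and C, the highest of the peaks near these genes, and held 1 GGCGCC and 4 GGAGCC. No MACS list and no IWR-1 list called it. The 250 bases before the RefSeq start are shown because this peak is the single one that met a promoter. RefSeq gave promoters for 6 of the 10 genes. None of the elements searched lay in these 250 bases, and the GC-rich words of the peak lay past the start. Of all 32851 RefSeq promoters, 31.7% held GGCGCC or GGAGCC in the same stretch.
Acvr2a start, chr2:48813859-48814108: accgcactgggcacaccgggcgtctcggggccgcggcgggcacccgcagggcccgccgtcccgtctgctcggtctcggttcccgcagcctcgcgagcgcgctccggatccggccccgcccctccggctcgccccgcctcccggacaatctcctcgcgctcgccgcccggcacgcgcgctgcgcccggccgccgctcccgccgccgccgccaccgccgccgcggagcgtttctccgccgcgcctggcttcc

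Acvr2b (ENSMUSG00000061393.14, chr9:119402118-119434995, plus strand), the other type II receptor, had no peak of the 5 lists within 20 kb. A common site lay 30.8 kb from it.

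The transducer genes differed from each other. Smad3 (ENSMUSG00000032402.12, chr9:63646767-63757994, minus strand) had 2 common sites, both in introns far from its start. The intron 5 site, chr9:63657139-63657476, was centred 100687 bp from the start and scored 70.4, at percentile 60.7. It held more of the elements searched than any other of the 8 sites: 1 GGAGCC 2 bp from its centre, 1 CTTTGAT, 1 CTTTGTT and 1 AGATAA. Its longest run of A was 7. Neither IWR-1 list called it. The intron 4 site, chr9:63664475-63664926, was centred 93294 bp from the start, scored 76.3 at percentile 70.3, and held 1 GGAGCC, 1 AGATAA and a run of 21 A. QESEQ called it with IWR-1 at 63664469-63664908, and the second MACS list did not. A DMSO QESEQ peak in intron 1, chr9:63672702-63673188, held 1 GGAGCC and had no IWR-1 call.

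Smad2 (ENSMUSG00000024563.16, chr18:76241580-76310963, plus strand) had QESEQ peaks alone, and its nearest common site was 127.0 kb away. A DMSO QESEQ peak at chr18:76225662-76225846 lay 15.7 kb before the gene body and was called by QESEQ with IWR-1 at 76225498-76225853. The second, chr18:76257690-76258108, was centred 3222 bp upstream of the main transcript's start, in intron 1 of a longer transcript, held 2 CAGACA and a run of 23 bases of A or T, and had no IWR-1 call. No tRNA gene lay within 2 kb of any of the 50 peaks.

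The 8 common sites scored between 56.8 and 85.2, with a median of 69.9, beside 50 to 2082 and a median of 66.6 over all common sites. All 8 thus lay below a score of 100. Their widths ran from 161 to 621 bp, with a median of 396 bp against 423 bp. The Acvr2a and Smad3 sites, at percentiles 60.7 to 80.1, ranked above those of Nodal, Lefty1, Lefty2 and Acvr1b, at 25.8 to 58.7. Masked repeat covered a median of 24.4% of the sites near these genes and 38.2% of all common sites.

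With IWR-1, QESEQ called 4 of the 8 common sites, those of Nodal, Lefty2, Acvr1b and the Smad3 intron 4 site, beside 37.0% of all common sites. The second MACS list called 3, those of Nodal, Lefty1 and Lefty2, beside 25.8%. Both lists called Nodal and Lefty2, beside 18.4% of all, and neither called both Acvr2a sites and the Smad3 intron 5 site, beside 55.6%. With 8 sites, nothing particular to the pathway was read from these counts. All 3 sites with no IWR-1 call scored at or above percentile 60.7 in the DMSO MACS list. The Smad3 intron 4 site, which QESEQ called, was at percentile 70.3. The relation of score to call was not tested.

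**Figure D3:**
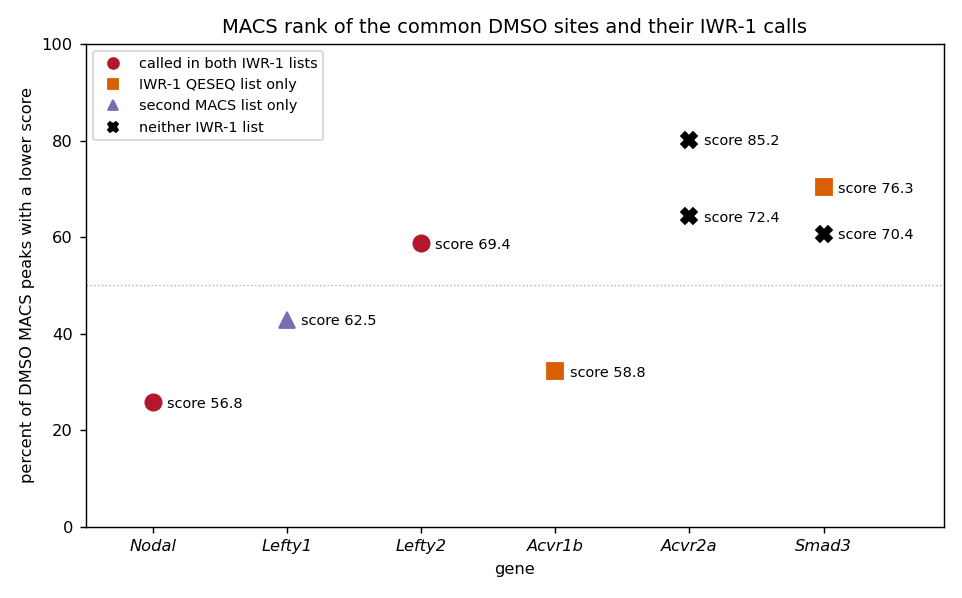
Percent of DMSO MACS peaks with a lower score (y axis) for the MACS peak behind each of the 8 common DMSO sites, by gene, with the score printed beside each point and the symbol giving the IWR-1 calls. The uncalled sites, crosses, are at Acvr2a and Smad3 at percentiles 60.7 to 80.1, and the sites called in both IWR-1 lists, circles, are at Nodal and Lefty2 at 25.8 and 58.7.

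Peaks of a single caller were called with IWR-1 as follows. Of 9 DMSO QESEQ peaks outside the DMSO MACS list, the IWR-1 QESEQ list called 2, at Acvr1b and Smad2, beside 17.1% of all such peaks. Of 3 DMSO MACS peaks outside the DMSO QESEQ list, the second MACS list called 2, at Acvr1b and Acvr2a, beside 33.0% of all such peaks. Of 9 IWR-1 QESEQ peaks near these genes, 3 overlapped neither DMSO list, at Tdgf1, Lefty1 and Acvr2a, beside 52.9% of the whole IWR-1 QESEQ list. None of these 3 was in the second MACS list. Over all 20 regions with a DMSO peak, 9 had a call in at least 1 of the IWR-1 lists, beside 32.1% of all such regions, and 11 had none.

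Sequence elements were searched on both strands over each whole site. GGCGCC and GGAGCC are GC-rich words bound by Smad1 and Smad5, and CAGACA and GTCTAGAC are words bound by Smad3 and Smad4. A GC-rich word lay in 3 of the 8 sites, at Acvr1b and both Smad3 sites, each time as GGAGCC, beside 18.9% of all common sites and 19.8% of windows of the same width 2 kb to either side. CAGACA lay in none, beside 32% of all common sites and 35% of the windows, and in 4 of the 9 DMSO QESEQ peaks outside the MACS list, beside 37.8%. GTCTAGAC lay in none of the 8, beside 0.411% of all. TCF/LEF words (CTTTGAT or CTTTGTT) lay in 1, the Smad3 intron 5 site, beside 18.3% of all and 19.7% of the windows. The GATA word AGATAA lay in 3, the upstream Acvr2a site and both Smad3 sites, beside 21.1% of all and 24.8% of the windows. The AP-1 word TGACTCA lay in none, beside 6.68% of all and 7.45% of the windows.

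A run of at least 7 A, on either strand, lay in 6 of the 8 sites, beside 90.3% of all common sites and 29.8% of the windows beside them. The sites without one were those of Lefty1 and Lefty2. In the MACS peaks behind the sites, which extended further at both Lefty genes, the run lay in 8 of 8, beside 93.8%. Runs of 21 to 29 bases lay in 7 of these MACS peaks, and the Smad3 intron 5 peak held one of 7. In DMSO QESEQ peaks outside the MACS list a run lay in 4 of 9, beside 73.6%, and in DMSO MACS peaks outside the QESEQ list in 3 of 3, beside 80.3%. In the IWR-1 QESEQ peaks outside both DMSO lists it lay in 2 of 3, beside 55.6%. The part of such runs in the calls was not tested.

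**Figure D4:**
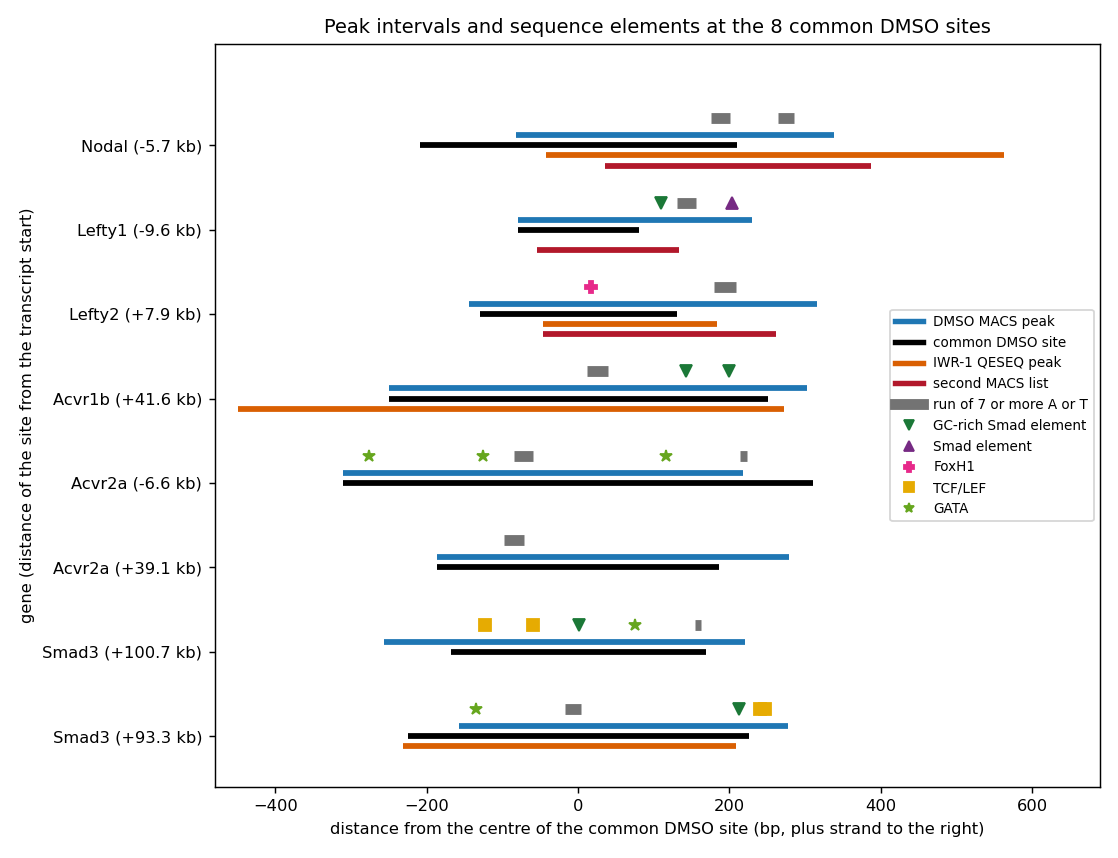
Peak intervals at the 8 common DMSO sites as horizontal lines, in bp from the centre of each site, with runs of 7 or more A or T as grey bars and sequence elements as symbols. The Lefty1 and Lefty2 runs lie inside the DMSO MACS peak and outside the common site, and the Nodal and Acvr2a intron 1 sites have runs and no other element.

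Further genes of the branch were listed by their role. Of 25 such genes, 11 had a common site, 17 sites in all. Of these 17, the IWR-1 QESEQ list called 11, beside 37.0% of all common sites. The second MACS list called 6 of them, beside 25.8% of all common sites. Nuclear partners and inhibitors of Smads had common sites at 6 of 8 genes, beside 35.1% of all protein-coding genes, with 11 sites in all. The same 35.1% stands beside each role below, and the roles, with few genes each, were not compared by a test. Foxh1, the gene of the Nodal-responsive factor named above, had 4, with scores of 88.4, 68.8, 91.9 and 55.9, and QESEQ called the first 3 with IWR-1. In the same order they were centred at 6524, -3183, -10279 and -16448 bp from its start, all outside the gene body. Tgif1, a repressor gene, had 3. The site of Skil, a gene for a Smad inhibitor that TGF-β signals induce, was centred at -1330 bp from the start, scored 63.9 and was called in both IWR-1 lists. Target genes of Nodal had common sites at 2 of 5, Eomes and Gsc, scoring 68 and 62.7. Neither site was called with IWR-1, beside 55.6% of all common sites called in neither IWR-1 list. Secreted antagonists had them at 0 of 4. The ligand and processing genes had them at 2 of 5, Inhba and Furin, and the remaining receptor genes at 1 of 3, Acvr1.

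For the BMP branch, read in the same way, 9 of 21 genes had a common site, with 15 sites, of which QESEQ called 6 with IWR-1 and the second MACS list called 6, beside the same 37.0% and 25.8% of all common sites. Receptors and Smads had them at 6 of 8 genes, ligands at 2 of 7 and inhibitors at 1 of 6. Median gene bodies in these groups were 76.9, 10.7 and 10.9 kb, so the windows searched also differed in length. Acvr1 and Smad7 are in both lists of further genes. The shares of genes with a common site, 6 of 10, 11 of 25 and 9 of 21, stood above the 35.1% of all genes, and gene bodies had median lengths of 20.1, 8.7 and 39.4 kb. The part of gene length in these shares was not tested.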

How the data were processed

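Smad1 ChIP–seq was compared between day 4 EBs treated with DMSO or IWR-1, with 1 ChIP and 1 input library each. The authors aligned reads to mm10 with Bowtie2 (2.1.0 in the submitters' processing notes), dropped PCR duplicates with SAMtools, and called peaks against input with MACS 1.0.1 (p-value cutoff 1e-05, tags of 51 bases, -m 32, bandwidth of 300) and with QESEQ (cutoff 0.05, -c 15, -s 100). Each deposited list gives positions, and the deposited MACS lists add a score per peak of 50 or more, used for ranks within a list alone. With no counts deposited, depth is unknown.

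Peaks were assigned to GENCODE M21 genes within 20 kb, with an overlap of at least 1 bp for calls. QESEQ positions were read as counted from 0, like those of MACS, and all positions are given counted from 1. A site took the highest score of the MACS peaks that overlap it. Sequence, with its masked repeats, was read from GRCm38.p6 (NCBI), and promoters from RefSeq. All 10 genes are named with every peak; sequence was printed for the highest-scoring common site of each gene off chromosome 18, for a promoter that a peak met and, chosen after the values were seen, for runs of A or T in the MACS peaks behind common sites. Python 3.11.15 with numpy 2.4.6, pysam 0.24.0 and matplotlib 3.10.9 was used, and overlap and element searches were tested on 10000 simulated sites each, all classed as planted. The members and lists were chosen with earlier results of these data known. No test was run, for lack of replicates. Alternatives covered distance, score, overlap, IWR-1 list, gene model and the part searched.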

Additional observations from a re-analysis of the deposited data

How the results depend on the processing

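Of 29 values recomputed under other settings, 18 stayed within 1.5 times the reported one. The 3 IWR-1 QESEQ peaks outside both DMSO lists became 1 within 10 kb, 5 within 50 kb and 0 when the second MACS list gave the calls. At a DMSO MACS score of at least 100, the genes with a common site (6), the common sites (8) and the regions with a DMSO peak (20) all became 0, since no score reached 100 and QESEQ peaks have none, and the IWR-1 calls then had no value. The 4 common sites called by QESEQ became 2 when both IWR-1 lists had to call, and 2 of 4 sites within 20 kb of the main transcript start, where the gene bodies of Smad3 and others no longer count. In the central 200 bp, GC-rich words lay in 1 site in place of 3. CAGACA lay in 1 in place of 0 when the whole MACS peak was searched, an alternative chosen after seeing the data. No paired analysis was possible because each treatment had 1 ChIP library, and for the same reason no replicate could be left out.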

Other observations

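The runs of A or T had a place relative to the MACS peak centre that differed by base. Over the DMSO MACS list, the longest run lay a median of -36.0 bp from the peak centre where it was A on the plus strand (7270 peaks, quartiles -70.0 and -0.5 bp) and 37.5 bp where it was T (6990 peaks, quartiles 1.0 and 69.5 bp). At the 8 common sites near the genes described above, the Lefty1 and Lefty2 runs of T were centred 68 and 108 bp to the right of the MACS peak centre. Of the 6 runs of A, those of Acvr1b, Acvr2a (both sites) and Smad3 intron 4 were centred -1, -26, -131 and -67 bp from it, and those of Nodal and Smad3 intron 5 were centred 60 and 176 bp from it. The runs thus lay on the side of the whole list's median at 6 of the 8 sites, with Acvr1b counted at -1 bp. In the whole list, runs of A lay on that side up to the upper quartile, and runs of T from the lower quartile. The count at the 8 sites was thus near the share in the whole list, and nothing particular to these genes was read from it. Strand and orientation of reads at these runs were not analysed here, and what sets the offset was not tested.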
